A study of Homo sapiens with 12 samples.

Results

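The BCL2 family genes examined here are the pro-apoptotic BCL2L11, BMF, BBC3, PMAIP1, BIK, BID, BAX and BAK1 and the anti-apoptotic BCL2L1 and MCL1. They were taken by name, as a family that acts in anoikis, and each symbol matched 1 Ensembl identifier, so they are 10 of the 58233 genes in the count table. All 10 passed the filter on low counts that left 15749 genes for testing. RNA was measured in MCF10-A, an established human mammary epithelial cell line that is not tumorigenic. The line came in 3 derivatives, labelled Addback, B4-4 and Vector, each under the labels EDTA and NA. The groups, with 2 libraries each, were therefore Addback EDTA, Addback NA, B4-4 EDTA, B4-4 NA, Vector EDTA and Vector NA. Every group, the Vector and NA groups included, consisted of cells that had been detached with trypsin and held for 3 hours without serum on a non-adhesive poly-HEMA coating. No attached cells are compared here, so no value below is a response to detachment. EDTA chelates divalent cations such as calcium and magnesium, which integrins and cadherins need to bind. Its dose, the meaning of the label NA, the way in which the B4-4 and Addback derivatives were made, and whether each is a clone or a pool are not stated by the labels or other sources at hand.

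Anoikis is the programmed death of epithelial cells that have lost contact with the matrix. In the mitochondrial pathway, BAX and BAK1 open pores in the outer mitochondrial membrane, BCL2L1 (BCL-XL) and MCL1 hold them in check, and the BH3-only proteins tip this balance by docking their BH3 helix into a groove of the guardians or of the effectors. In mammary epithelial cells BCL2L11 (BIM) and BMF are the BH3-only proteins best known for a part in anoikis, and growth factor receptor and integrin signalling is known to hold BCL2L11 down. Much of this regulation acts on the proteins, by phosphorylation, sequestration and turnover, which RNA counts do not measure.

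The BH3 core is the element that places these genes in a family, so its coding sequence is shown for each member. A search of the coding sequences for a leucine codon followed at a fixed spacing by a glycine or alanine codon and an aspartate codon, with a window of 45 bases, found 1 such stretch in the transcript shown for each member, from GENCODE 29 on GRCh38. Capitals mark the codons of the leucine, of the glycine or alanine, and of the aspartate. The number of the coding exon is its place among all exons of the transcript, untranslated exons included. BMF and BBC3 carry the alanine codons GCA and GCG in the middle position and the other members a glycine codon.
BCL2L11 chr2:111150091-111150135 + strand, coding exon 4: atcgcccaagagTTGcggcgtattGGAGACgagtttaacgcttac
BMF chr15:40104192-40104236 - strand, coding exon 3: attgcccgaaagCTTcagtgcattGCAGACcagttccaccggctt
BBC3 chr19:47226576-47226620 - strand, coding exon 3: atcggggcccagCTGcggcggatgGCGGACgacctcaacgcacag
PMAIP1 chr18:59902661-59902705 + strand, coding exon 2: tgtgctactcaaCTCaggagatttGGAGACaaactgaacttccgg
BIK chr22:43127704-43127748 + strand, coding exon 3: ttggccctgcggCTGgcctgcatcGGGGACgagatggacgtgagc
BAX chr19:48955775-48955819 + strand, coding exon 3: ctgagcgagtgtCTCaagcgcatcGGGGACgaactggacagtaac
BAK1 chr6:33575384-33575428 - strand, coding exon 4: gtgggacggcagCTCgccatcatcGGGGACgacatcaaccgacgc
BID chr22:17739412-17739456 - strand, coding exon 4: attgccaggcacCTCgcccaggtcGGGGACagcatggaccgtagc
BCL2L1 chr20:31721919-31721963 - strand, coding exon 1: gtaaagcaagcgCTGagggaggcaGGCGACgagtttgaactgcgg
MCL1 chr1:150578862-150578906 - strand, coding exon 1: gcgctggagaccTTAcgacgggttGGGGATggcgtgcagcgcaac

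Library totals ran from 15685376 to 22156173 counts, and levels are given as CPM, counts scaled to a common library size with TMM factors. Differences are log2 fold changes ± SE from a quasi-likelihood fit in edgeR, and p-values were adjusted by the Benjamini-Hochberg method over the 15749 genes. A gene is called higher or lower at an adjusted p under 0.05. ITGB4, the integrin beta 4 chain, stood at 1060 to 1525 CPM in the Addback libraries, 182 to 395 CPM in the B4-4 libraries and 1678 to 1850 CPM in the Vector libraries. All 8 markers of basal mammary epithelium, ITGB4 among them, were detected in every library, with a summed level of 9950 to 15900 CPM. Summed fibroblast markers were 15.1 to 68.1 CPM, and leukocyte markers at most 0.287 CPM, with CD3E and LYZ at 0. The endothelial markers summed to 3.35 to 34.3 CPM, nearly all of it PECAM1, with CDH5 at 0. Replicates were not equally close. In B4-4 NA the pair differed by more than 1.5-fold in 7 of the 10 members and in 14.3% of the 10632 genes of at least 5 CPM. In Addback EDTA it did so in BCL2L11, BMF and PMAIP1 and in 7.42% of genes, and in the other 4 groups in at most 2.18% of genes and in no member except BMF in B4-4 EDTA. The Addback EDTA 2 library carries lane 7 in its label and the 11 others lane 8. For many member values that 1 library of these pairs decides, the value without it, or the range over such fits, is given beside it. Not all such cases are listed. Some comparisons that do not use the B4-4 NA pair also gained a call when 1 of that pair was left out. For genes other than the members, markers included, values without single libraries were not taken.

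Per kilobase of exon, MCL1 was the most abundant member in all 12 libraries, at a median of 188.1 RPKM, which is CPM divided by exon length. BAK1 followed at a median of 27.96 RPKM, BAX at 27.56 RPKM and BCL2L1 at 19.9 RPKM. PMAIP1 had a median of 11.44 RPKM, BIK 7.88 RPKM, BID 6.95 RPKM, BCL2L11 5.9 RPKM and BBC3 3.2 RPKM. BMF was near the limit of detection, at a median of 0.126 RPKM and 1 to 67 counts per library. Across libraries the members differed in how far they moved. BMF spanned 80.4-fold in CPM from the lowest to the highest library, BBC3 3.96-fold, PMAIP1 3.8-fold and BCL2L11 3.51-fold, whereas MCL1 spanned 1.8-fold.

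**Figure D1:**
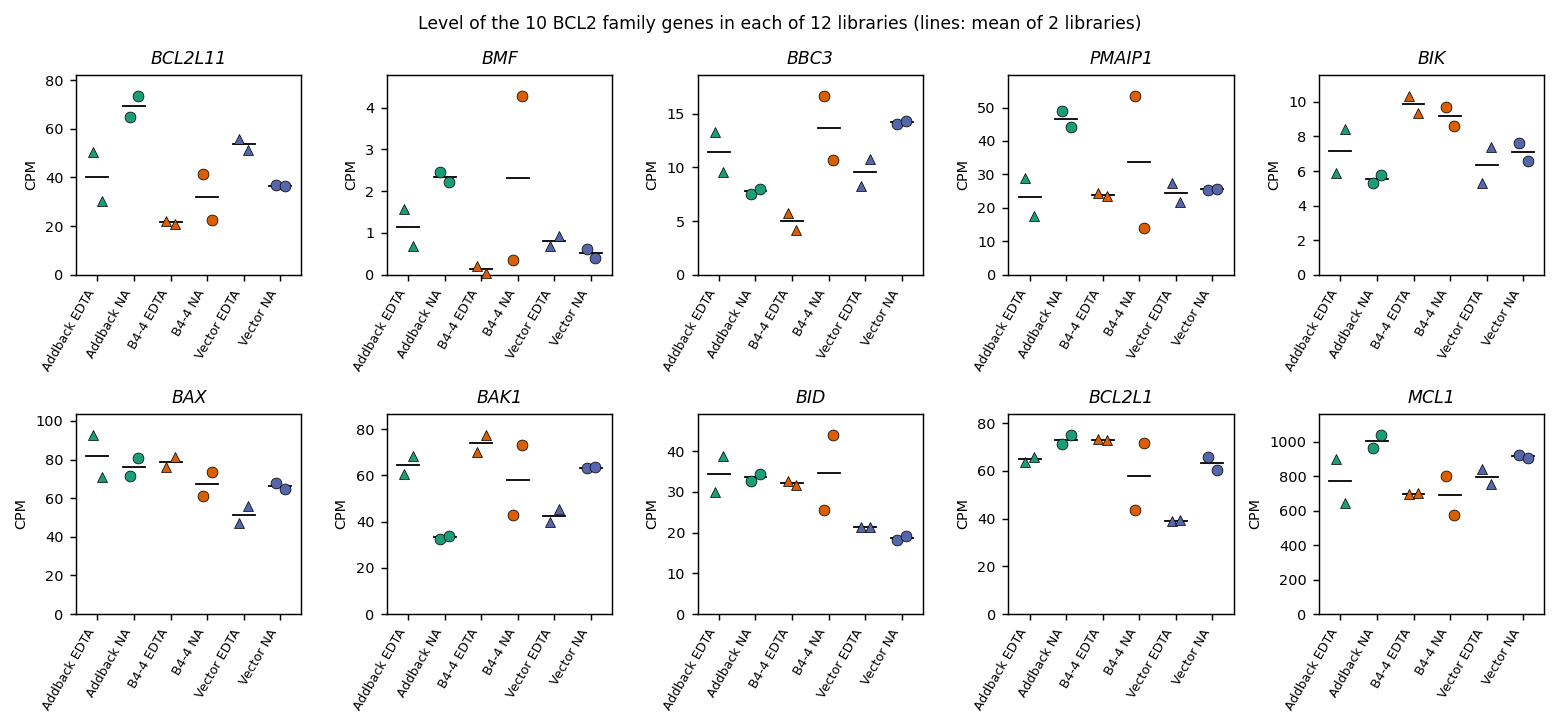
CPM of the 10 BCL2 family genes in each library on linear axes from 0, with the 6 groups from Addback EDTA to Vector NA. Triangles are EDTA libraries, circles are NA libraries and black lines are means of 2 libraries; BCL2L11 peaked in Addback NA at 65.0 and 73.5 CPM, where BAK1 was lowest at 32.6 and 33.9 CPM.

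BCL2L11 encodes BIM, the BH3-only activator that binds every anti-apoptotic family member and can engage BAX and BAK1 directly. The gene (ENSG00000153094) lies on chromosome 2, 111119378 to 111168447, plus strand. Its level was 50.3 and 30.4 CPM in Addback EDTA and 65.0 and 73.5 CPM in Addback NA. In B4-4 it was 22.2 and 20.9 CPM with EDTA and 41.6 and 22.7 CPM in NA. In Vector it was 55.8 and 51.4 CPM with EDTA and 36.9 and 36.4 CPM in NA. The EDTA and NA libraries did not overlap in any derivative, with EDTA on top in Vector and NA on top in Addback and B4-4, although the B4-4 NA 2 library lay within 2 CPM of both B4-4 EDTA libraries. With EDTA, BCL2L11 was lower in B4-4 than in Vector by 2.48-fold (log2 fold change −1.31 ± 0.28, adjusted p = 0.00408), and this call held whichever of the 12 libraries was left out, with adjusted p from 0.000219 to 0.0348. In NA it was higher in Addback than in B4-4 (+1.10 ± 0.27, adjusted p = 0.0177) and than in Vector (+0.92 ± 0.27, adjusted p = 0.0251). The call against B4-4 ended without Addback NA 1 (adjusted p = 0.0607) or Addback NA 2 (0.0849), and the call against Vector ended without Addback NA 1 (0.0636), Addback NA 2 (0.111), Vector NA 1 (0.116) or Vector NA 2 (0.126). The EDTA effect was lower in Addback than in Vector by 1.33 on the log2 scale (−1.33 ± 0.38, adjusted p = 0.0313), since it was −0.78 in Addback and +0.55 in Vector, neither called on its own in this fit. The Vector effect was called in a fit of the Vector groups alone (+0.55, adjusted p = 0.00203), and the Addback effect with no filter on low counts (−0.77, 0.00354). The Addback effect kept its size without B4-4 NA 1 (−0.79) or B4-4 NA 2 (−0.78). The Addback effect was −1.19 (adjusted p = 0.0146) without Addback EDTA 1 and −0.46 (0.323) without Addback EDTA 2, and DESeq2 called it with all libraries (−0.80, 0.0129). The difference between the Addback and Vector effects ended as a call in 8 of the 12 fits that left out a library, namely Addback EDTA 2, Addback NA 1, Addback NA 2, B4-4 EDTA 1 and each of the 4 Vector libraries, with adjusted p from 0.0585 to 0.108. In bulk RNA, fewer cells that express a gene and less of its RNA per cell cannot be told apart, here and for each member that follows.

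Exons of BCL2L11 share 727 bases with MIR4435-2HG, a long noncoding RNA on the opposite strand, and the sources at hand do not say whether reads were counted by strand, so those of the shared bases cannot be assigned. MIR4435-2HG ranged from 16.9 to 42.8 CPM, with its top levels, 39.9 and 42.8 CPM, also in Addback NA. It was higher in Addback than in B4-4 in NA (+0.72 ± 0.23, adjusted p = 0.0405) and than in Vector in NA (+0.82 ± 0.23, adjusted p = 0.0157). In B4-4 against Vector with EDTA it was not called (−0.45 ± 0.23, adjusted p = 0.131). Its part in the BCL2L11 values was not tested. Summed fibroblast markers stood high in Addback NA as well, at 56.3 to 56.6 CPM, against 18.1 to 30.2 CPM in B4-4 NA and 15.1 to 16.3 CPM in Vector NA, with all 5 of the tested markers higher than in Vector. Their part in the Addback NA values was likewise not tested.

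BMF, a BH3-only protein that is held at the actin cytoskeleton through a dynein light chain until cells lose attachment, was the rarest member (ENSG00000104081, chromosome 15, 40087890 to 40108892, minus strand). It had 27 and 12 counts in Addback EDTA and 44 and 41 counts in Addback NA. In B4-4 it had 4 and 1 counts with EDTA, and 6 and 67 counts in NA. In Vector it had 15 and 21 counts with EDTA and 11 and 8 counts in NA. The B4-4 EDTA libraries were the lowest of the 12 and B4-4 NA 2 the highest, with B4-4 NA 1 close to its EDTA counterparts. BMF was called lower with EDTA in B4-4 (−4.05 ± 1.13, adjusted p = 0.033), and the EDTA effect was called lower in B4-4 than in Vector (−4.72 ± 1.53, adjusted p = 0.0451). Both rest on B4-4 NA 2. Against both NA libraries the summed counts of B4-4 EDTA per total were 17.4-fold lower, with an exact 95% interval of 7.14 to 55.3 that covers counting error only. Against B4-4 NA 1 alone they were 2.74-fold lower, with an interval of 0.697 to 11.4 that includes no difference. Without B4-4 NA 2 the log2 fold change was −1.35 (adjusted p = 0.343) for EDTA in B4-4 and −2.02 (adjusted p = 0.182) for the difference. The first call also ended without Addback NA 1, Addback NA 2, B4-4 EDTA 1, B4-4 EDTA 2, Vector NA 1 or Vector NA 2 (adjusted p 0.052 to 0.183), and when the B4-4 groups were fitted alone (0.147). Of the fits without 1 library, the second held in that without B4-4 NA 1 alone, its adjusted p in the other 11 ran from 0.0504 to 0.182, and it ended in a fit of the compared groups alone (0.067). The antisense gene BMF-AS1, which shares 461 exonic bases with BMF, had 0 counts in every library.

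BBC3 encodes PUMA, a BH3-only protein that neutralises all the anti-apoptotic members (ENSG00000105327, chromosome 19, 47220822 to 47232766, minus strand). It stood at 13.3 and 9.61 CPM in Addback EDTA and 7.5 and 8.02 CPM in Addback NA. B4-4 libraries had 5.74 and 4.21 CPM with EDTA, and 16.6 and 10.7 CPM in NA. Vector libraries had 8.29 and 10.8 CPM with EDTA and 14.1 and 14.3 CPM in NA. B4-4 EDTA held the lowest libraries of the 12, and the EDTA and NA libraries of each derivative did not overlap. BBC3 was lower with EDTA in B4-4 by 2.75-fold (−1.46 ± 0.25, adjusted p = 0.00256), a call that held without any single library, at −1.11 without B4-4 NA 1 (adjusted p = 0.00586) and −1.74 without B4-4 NA 2 (0.000318). It was not held in a fit of the B4-4 groups alone (−1.47, adjusted p = 0.0654). Addback moved in the opposite direction with EDTA, at +0.56 ± 0.24 (adjusted p = 0.133, not called), and Vector at −0.57 ± 0.23 (adjusted p = 0.12, not called). The difference between those EDTA effects, Addback minus Vector, was called (+1.13 ± 0.34, adjusted p = 0.0284). It ended without Addback EDTA 1 (0.0859), Addback NA 1 (0.0979), Addback NA 2 (0.0735), Vector EDTA 1 (0.136), Vector NA 1 (0.0905) or Vector NA 2 (0.0971).

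Between derivatives, BBC3 ranked differently with and without EDTA. With EDTA it was 2.3-fold higher in Addback than in B4-4 (+1.20 ± 0.25, adjusted p = 0.00792) and 1.91-fold lower in B4-4 than in Vector (−0.94 ± 0.25, adjusted p = 0.00918). The Addback level in NA was below that of B4-4 (−0.82 ± 0.24, adjusted p = 0.0274) and that of Vector (−0.87 ± 0.24, adjusted p = 0.0139). Each of these calls was lost in some fits. For Addback against B4-4 with EDTA these were the fits without Addback EDTA 1 (0.0696) or B4-4 EDTA 2 (0.101), and for B4-4 against Vector with EDTA those without B4-4 EDTA 2 (0.0969) or Vector EDTA 2 (0.0845). For Addback against B4-4 in NA they were those without Addback NA 1 (0.158), Addback NA 2 (0.105), B4-4 NA 1 (0.197), Vector NA 1 (0.0517) or Vector NA 2 (0.0518), and the size fell to −0.45 without B4-4 NA 1. For Addback against Vector in NA they were those without Addback NA 1 (0.0918), Addback NA 2 (0.0635), Vector NA 1 (0.0733) or Vector NA 2 (0.0796).

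PMAIP1 encodes NOXA, a BH3-only protein that binds MCL1 and promotes its turnover (ENSG00000141682, chromosome 18, 59899948 to 59904306, plus strand). It was 28.8 and 17.5 CPM in Addback EDTA and 48.8 and 44.2 CPM in Addback NA. The B4-4 levels were 24.3 and 23.4 CPM with EDTA, and 53.5 and 14.1 CPM in NA. The Vector levels were 27.4 and 21.6 CPM with EDTA and 25.4 and 25.8 CPM in NA. The highest and the lowest of the 12 libraries were thus the 2 replicates of B4-4 NA, and Addback NA lay above all EDTA libraries. PMAIP1 passed the test in no comparison, with the wide SE of 0.52 to 0.75 that this pair gives it. The direction turned with the B4-4 NA library kept. EDTA in B4-4 gave +0.76 (adjusted p = 0.0494) without B4-4 NA 1 and −1.16 (adjusted p = 0.00495) without B4-4 NA 2. B4-4 against Vector in NA gave −0.87 (0.0372) without B4-4 NA 1 and +1.06 (0.0152) without B4-4 NA 2. Some comparisons that do not use the B4-4 NA pair kept their direction but passed the threshold when 1 of the pair was left out, since all comparisons share 1 estimate of the spread. EDTA in Addback was −1.01 (adjusted p = 0.244) with all libraries, −1.02 (0.00341) without B4-4 NA 1 and −1.01 (0.00364) without B4-4 NA 2.

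BIK, a BH3-only protein of the endoplasmic reticulum, spanned the least of the BH3-only members, 1.95-fold over the 12 libraries (ENSG00000100290, chromosome 22, 43110748 to 43129712, plus strand). It was 5.91 and 8.42 CPM in Addback EDTA and 5.32 and 5.74 CPM in Addback NA. In B4-4 cells it stood at 10.3 and 9.37 CPM with EDTA and 9.7 and 8.62 CPM in NA. In Vector cells it stood at 5.33 and 7.4 CPM with EDTA and 7.62 and 6.58 CPM in NA. All 4 B4-4 libraries lay above the 8 others. With EDTA, BIK was higher in B4-4 than in Vector by 1.55-fold (+0.63 ± 0.21, adjusted p = 0.0301), which ended with upper-quartile factors (0.0542) and without B4-4 EDTA 1, B4-4 EDTA 2, Vector EDTA 1, Vector NA 1 or Vector NA 2 (adjusted p 0.0504 to 0.241, with +0.38 without Vector EDTA 1). In NA, Addback lay below B4-4 (−0.73 ± 0.22, adjusted p = 0.0306), which ended without Addback NA 1, Addback NA 2, B4-4 EDTA 1, B4-4 NA 1, Vector NA 1 or Vector NA 2 (0.0506 to 0.17).

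BID, which caspase-8 cleaves to carry a death receptor signal to the mitochondria, separated Vector from the other derivatives (ENSG00000015475, chromosome 22, 17734138 to 17774770, minus strand). It was 30.1 and 38.8 CPM in Addback EDTA and 32.7 and 34.4 CPM in Addback NA. B4-4 gave 32.6 and 31.7 CPM with EDTA, and 25.4 and 43.9 CPM in NA. Vector gave 21.3 and 21.4 CPM with EDTA and 18.3 and 19.1 CPM in NA. Every Addback and B4-4 library lay above every Vector library. BID was higher in Addback than in Vector in NA by 1.8-fold (+0.84 ± 0.21, adjusted p = 0.00779), a call kept without any single library, with adjusted p up to 0.0486. It was also called higher in Addback than in Vector with EDTA (+0.69 ± 0.20, adjusted p = 0.0241), in B4-4 than in Vector with EDTA (+0.59 ± 0.20, adjusted p = 0.0339) and in B4-4 than in Vector in NA (+0.89 ± 0.21, adjusted p = 0.0261). The first of these ended without Addback EDTA 2 (+0.49, 0.165), Vector EDTA 1 (0.11) or Vector EDTA 2 (0.103). The next ended without Addback NA 1, Addback NA 2 or any of the 4 EDTA libraries compared (0.0508 to 0.128), and with upper-quartile factors (0.0632). The last ended without Addback NA 1 (0.0502), B4-4 EDTA 2 (0.0501), B4-4 NA 2 (+0.45, 0.0799), Vector NA 1 (0.175) or Vector NA 2 (0.15), and stood at +1.23 (7.09e-05) without B4-4 NA 1. The EDTA effect on BID was not called in any derivative, at +0.04 in Addback, −0.10 in B4-4 and +0.19 in Vector, with 95% intervals from −0.40 to 0.48, −0.54 to 0.34 and −0.26 to 0.65. The B4-4 value depended on the NA library kept, at −0.45 (adjusted p = 0.0254) without B4-4 NA 1 and +0.34 (0.121) without B4-4 NA 2.

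BAX, the effector that moves from the cytosol to mitochondria when activated, was lowest in Vector EDTA (ENSG00000087088, chromosome 19, 48954815 to 48961798, plus strand). It was 92.6 and 70.9 CPM in Addback EDTA and 71.7 and 81.0 CPM in Addback NA. For B4-4 the values were 76.1 and 81.2 CPM with EDTA, and 61.3 and 73.3 CPM in NA. For Vector the values were 47.1 and 55.9 CPM with EDTA and 68.0 and 64.7 CPM in NA. The Vector EDTA libraries were the lowest 2 of the 12, and the highest was Addback EDTA 1. With EDTA, BAX was 1.59-fold higher in Addback than in Vector (+0.67 ± 0.14, adjusted p = 0.00444) and 1.53-fold higher in B4-4 than in Vector (+0.61 ± 0.14, adjusted p = 0.00445). Both calls were lost without Vector EDTA 1, the lowest library, at +0.53 (0.0601) and +0.46 (0.0631). The EDTA effect was called higher in B4-4 than in Vector (+0.59 ± 0.20, adjusted p = 0.0462). That call ended with RLE factors (0.0522), upper-quartile factors (+0.48, 0.114) and without Addback NA 1, Addback NA 2, B4-4 EDTA 1, B4-4 EDTA 2, B4-4 NA 1, Vector EDTA 1, Vector NA 1 or Vector NA 2 (0.0642 to 0.186). In NA no comparison of BAX between derivatives was called, with differences of +0.02 to +0.20.

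BAK1, the effector that resides in the outer mitochondrial membrane, responded differently to EDTA in Addback and Vector (ENSG00000030110, chromosome 6, 33572547 to 33580293, minus strand). It was 60.6 and 68.3 CPM in Addback EDTA and 32.6 and 33.9 CPM in Addback NA. The 4 B4-4 libraries read 70.2 and 77.3 CPM with EDTA, and 42.8 and 73.1 CPM in NA. The 4 Vector libraries read 39.8 and 45.3 CPM with EDTA and 63.1 and 63.4 CPM in NA. In Addback both EDTA libraries lay above both NA libraries, in Vector both lay below, and in B4-4 the EDTA libraries overlapped with NA 2 alone. BAK1 was 1.94-fold higher with EDTA in Addback (+0.95 ± 0.19, adjusted p = 0.00753), a call that ended without Addback EDTA 2 (0.0522), Addback NA 1 (0.0805) or Addback NA 2 (0.0504). In Vector the change was −0.57 ± 0.19 (adjusted p = 0.0641, not called), and it was called without B4-4 NA 1 (0.000911) or B4-4 NA 2 (0.00108). The difference between these EDTA effects, Addback minus Vector, was +1.53 ± 0.27 (adjusted p = 0.00225), and it was kept without any single library, at +1.4 to +1.62, with adjusted p up to 0.0168. The B4-4 effect also exceeded that in Vector (+0.92 ± 0.27, adjusted p = 0.0258). This call ended without B4-4 EDTA 1 (0.0531), B4-4 EDTA 2 (0.0886), Vector EDTA 1 (0.0943), Vector EDTA 2 (0.0523), Vector NA 1 (0.0716) or Vector NA 2 (0.0719), and the size was +0.58 without B4-4 NA 1.

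The order of the derivatives for BAK1 therefore turned with the treatment. In NA, Addback was lower than Vector by 1.9-fold (−0.93 ± 0.19, adjusted p = 0.00335), kept without any single library, and lower than B4-4 (−0.80 ± 0.19, adjusted p = 0.0126). With EDTA, Addback was higher than Vector (+0.60 ± 0.19, adjusted p = 0.0341) and B4-4 was higher than Vector (+0.79 ± 0.19, adjusted p = 0.00588). Addback against B4-4 in NA ended without Addback NA 1 (0.0934) or Addback NA 2 (0.0654), ended in a fit of these groups alone (0.103), and was −0.36 (0.0437) without B4-4 NA 2. Addback against Vector with EDTA ended with upper-quartile factors (0.0512) and without Addback EDTA 2, Addback NA 1, Addback NA 2, B4-4 EDTA 2, Vector EDTA 1 or Vector EDTA 2 (0.0502 to 0.188), and it was only just called without Addback EDTA 1 (0.05 after rounding). B4-4 against Vector with EDTA ended without Vector EDTA 1 (0.0566).

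BCL2L1 encodes BCL-XL, the guardian that restrains BAX and BAK1 and sequesters BH3-only proteins, and it was lowest in Vector EDTA (ENSG00000171552, chromosome 20, 31664452 to 31723989, minus strand). Splice forms of opposite function come from this gene, and counts per gene do not separate them. It was 63.7 and 66.0 CPM in Addback EDTA and 71.2 and 74.9 CPM in Addback NA. B4-4 cells showed 73.2 and 73.1 CPM with EDTA, and 43.6 and 71.9 CPM in NA. Vector cells showed 38.8 and 39.3 CPM with EDTA and 65.9 and 60.3 CPM in NA. The Vector EDTA libraries and B4-4 NA 1 formed the low end, at 43.6 CPM or less, and the 9 others lay at 60.3 CPM or more. BCL2L1 fell with EDTA in Vector by 1.62-fold (−0.69 ± 0.17, adjusted p = 0.0189), and this call ended without any of the 4 Vector libraries (0.07 to 0.127). With EDTA it was higher in B4-4 than in Vector by 1.87-fold (+0.90 ± 0.17, adjusted p = 0.00134), kept without any single library, and higher in Addback than in Vector (+0.73 ± 0.17, adjusted p = 0.00792), lost without Vector EDTA 1 (0.056). The EDTA effect was higher in B4-4 than in Vector by 1.03 on the log2 scale (+1.03 ± 0.24, adjusted p = 0.00881). That difference was kept without any single library, at +0.71 (0.00105) without B4-4 NA 1 and +1.44 (9.65e-06) without B4-4 NA 2. Against Vector, the EDTA effect in Addback differed by +0.52 (95% interval −0.01 to 1.05, adjusted p = 0.14, not called). This difference was called in a fit of the compared groups alone (+0.50, 0.0117) and with no filter on low counts (+0.55, 0.0212). Its size was +0.50 without B4-4 NA 1 and +0.52 without B4-4 NA 2. ABALON, an antisense gene that shares 1424 exonic bases with BCL2L1, had at most 1.34 CPM.

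MCL1, the short-lived guardian that PMAIP1 and BCL2L11 engage, was the most even member (ENSG00000143384, chromosome 1, 150574551 to 150579738, minus strand). It was 901 and 643 CPM in Addback EDTA and 967 and 1038 CPM in Addback NA. Among B4-4 libraries it was 696 and 700.0 CPM with EDTA, and 802 and 576 CPM in NA. Among Vector libraries it was 842 and 754 CPM with EDTA and 925 and 908 CPM in NA. The libraries of Addback NA were the highest and B4-4 NA 2 the lowest. MCL1 was called once, higher in Addback than in B4-4 in NA (+0.54 ± 0.16, adjusted p = 0.034). That call ended in 8 of the 12 fits that left out a library (without Addback NA 1, Addback NA 2, B4-4 EDTA 1, B4-4 EDTA 2, B4-4 NA 2, Vector EDTA 1, Vector NA 1 or Vector NA 2, adjusted p 0.054 to 0.162), and it was +0.32 without B4-4 NA 2. The EDTA effect on MCL1 was −0.38 in Addback (95% interval −0.74 to −0.02), +0.02 in B4-4 (−0.34 to 0.38) and −0.20 in Vector (−0.56 to 0.16), none of them called. The Addback effect was −0.64 and called without Addback EDTA 1 (adjusted p = 0.0207), and −0.15 without Addback EDTA 2 (0.616). It was called as well without B4-4 NA 1 (0.0481), without B4-4 NA 2 (0.0486) and with no filter on low counts (0.0124).

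Set by comparison, EDTA changed few members within a derivative in the edgeR fit used here. In Addback, BAK1 rose and the 9 others were not called, while 16.9% of all genes tested were called. In B4-4, BMF and BBC3 fell and the other 8 were not called, against 19.9% of all genes. In Vector, BCL2L1 fell and the other 9 were not called, against 15.3% of all genes. The members' shares, 1, 2 and 1 of 10, lie near these backgrounds. With the Vector groups fitted alone, 6 members and 4664 genes were called, BCL2L11 higher and BBC3, BAX, BAK1, BCL2L1 and MCL1 lower. The same kind of fit called 0 members and 308 genes for B4-4, and 1 member and 2048 genes for Addback. In the edgeR fit used here, no member was called in 2 derivatives. DESeq2 called BAK1 in 2, lower with EDTA in Vector (−0.56, adjusted p = 0.0312) and higher in Addback. With no filter on low counts, BAK1, BBC3 and BCL2L11 were each called in more than 1 derivative. RLE and upper-quartile factors called no member in 2. In B4-4, whether 5 further members were called depended on the NA library kept. Without B4-4 NA 1, BID was lower and PMAIP1 higher with EDTA, and without B4-4 NA 2, BCL2L11 (−0.95, adjusted p = 0.0148) and PMAIP1 were lower and BAK1 and BCL2L1 (0.74, 0.000387) higher. Some markers of other cell types were called with EDTA too. Summed fibroblast markers were 37.4 to 68.1 CPM in Addback EDTA, against 56.3 to 56.6 CPM in Addback NA, with 2 of 5 tested markers lower. They were 15.9 to 16.2 CPM in B4-4 EDTA, against 18.1 to 30.2 CPM in B4-4 NA, with 1 of 5 higher and 1 lower. They were 30.7 to 30.8 CPM in Vector EDTA, against 15.1 to 16.3 CPM in Vector NA, with 2 of 5 tested markers higher. Endothelial markers, nearly all PECAM1, were 3.35 to 3.52 CPM in B4-4 EDTA, against 9.01 to 24.9 CPM in B4-4 NA, and PECAM1 was called lower (−2.31). The part of these markers in the EDTA results was not tested. With upper-quartile factors the share of called genes that were higher was 36.8% in B4-4, against 49.6% with TMM factors.

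**Figure D2:**
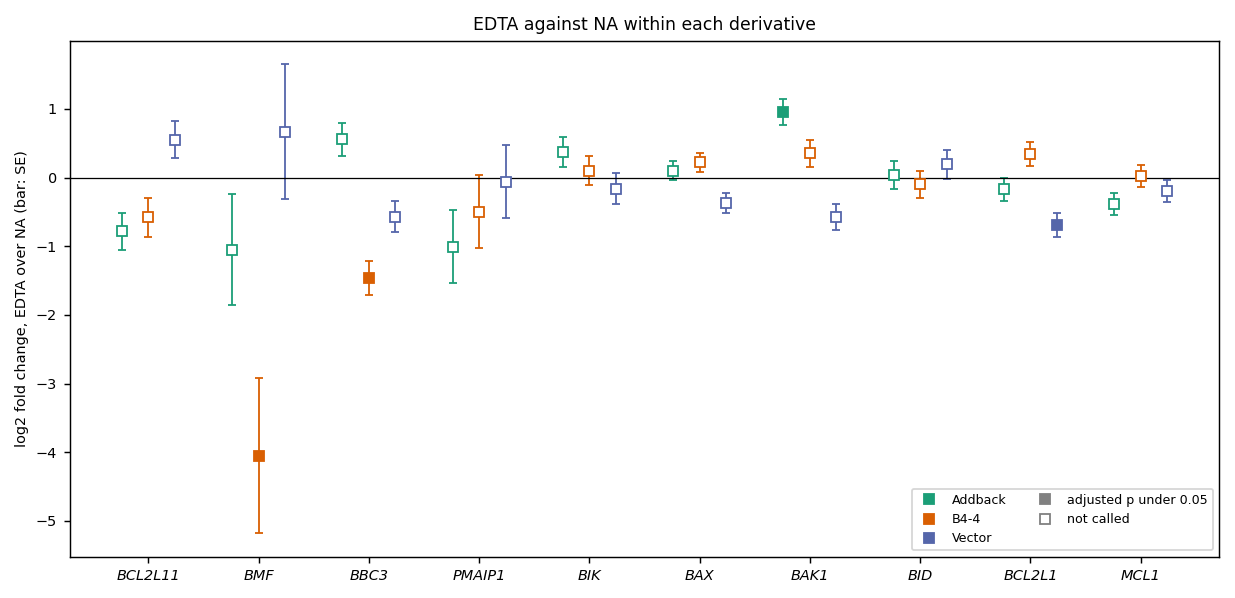
Log2 fold change of EDTA over NA for each member in Addback, B4-4 and Vector, with bars of 1 SE; filled squares passed an adjusted p of 0.05. BAK1 rose in Addback (+0.95), BBC3 and BMF fell in B4-4 (−1.46 and −4.05), and BCL2L1 fell in Vector (−0.69).

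Whether the EDTA response differs between derivatives was tested directly. Against Vector, the EDTA effect in Addback differed in BCL2L11 (lower), BBC3 and BAK1 (higher), 3 of 10 members, with 24.2% of all genes called. The EDTA effect in B4-4 differed from that in Vector in BMF (lower), BAX, BAK1 and BCL2L1 (higher), 4 of 10 members, with 27.0% of all genes called. BCL2L11 missed the threshold there (−1.13 ± 0.39, adjusted p = 0.0573), and it was −0.63 (0.151) without B4-4 NA 1 and −1.5 (0.00337) without B4-4 NA 2. It passed without Addback EDTA 1 (0.0198) or Addback EDTA 2 (0.0199), with upper-quartile factors (0.0467), with no filter (0.00207), with DESeq2 (0.0085) and in a fit of the compared groups alone (0.0324). Without B4-4 NA 2, BBC3 (−1.17, 0.0111) and PMAIP1 (−1.10, 0.0171) also passed, and without B4-4 NA 1 they were −0.54 (0.204) and +0.82 (0.0729), while BID passed at −0.65 (0.0136). For Addback, BAX passed without Addback EDTA 2 (+0.64, 0.0364) and was +0.26 (0.34) without Addback EDTA 1. For B4-4 minus Vector, upper-quartile factors moved the median of all genes to −0.12. The share of called genes that were higher moved to 42%, against 53.4% with TMM factors. For Addback minus Vector the median moved to −0.08 and the share to 46.1%, against 55.3%. Both comparisons use the Vector libraries, so BAK1 appears in both partly through shared samples. Its values were +0.95 in Addback, +0.35 in B4-4 and −0.57 in Vector, and that in B4-4 was 0.01 (adjusted p = 0.955) without B4-4 NA 1 and 0.79 (0.000863) without B4-4 NA 2. The count for Addback ran from 1 without Addback NA 1, Addback NA 2, Vector EDTA 1, Vector NA 1 or Vector NA 2 to 5 without either B4-4 NA library. The count for B4-4 ran from 1, without B4-4 EDTA 1, B4-4 EDTA 2, Vector EDTA 1, Vector NA 1 or Vector NA 2, to 6 without B4-4 NA 2.

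The broadest difference between derivatives appeared with EDTA between B4-4 and Vector, where 7 of the 10 members were called and 43.4% of all genes were. BIK, BAX, BAK1, BID and BCL2L1 were higher in B4-4, BCL2L11 and BBC3 were lower, and BMF, PMAIP1 and MCL1 were not called. The effectors and BCL2L1 were thus higher in B4-4, and the called BH3-only genes split, BIK and BID higher and BCL2L11 and BBC3 lower. BMF, at 4 and 1 counts in B4-4 EDTA against 15 and 21 counts in Vector EDTA, was −2.58 ± 1.25 (adjusted p = 0.122). It was called lower with DESeq2 (−2.66, 0.0297), with no filter (0.00371) and in a fit of the compared groups alone (0.00565). That last fit called MCL1 lower too (−0.19, 0.042). Without B4-4 NA 1 or B4-4 NA 2, BMF kept its size, at −2.59 and −2.58. Summed basal epithelial markers were 15200 to 15900 CPM in B4-4 EDTA, against 11400 to 12000 CPM in Vector EDTA. Of these 8 markers, which include ITGB4, 2 were higher and 1 lower. Fibroblast markers summed to 15.9 to 16.2 CPM in B4-4 EDTA, against 30.7 to 30.8 CPM in Vector EDTA, with 2 of 5 tested markers lower, and endothelial markers, nearly all PECAM1 with CDH5 at 0, to 3.35 to 3.52 CPM, against 22.7 to 24.3 CPM. The part of these markers in the results was not tested. In NA the same derivatives differed in BID alone, with 7.16% of all genes called, and the B4-4 NA pair that this comparison uses is the least even of the 6. The count with EDTA ran from 3 without Vector EDTA 1 to 8 without either B4-4 NA library. In NA it ran from 0, without Addback NA 1, B4-4 EDTA 2, Vector NA 1 or Vector NA 2, to 4 without B4-4 NA 1. Without B4-4 NA 1, BMF was higher in B4-4 (+3.04, adjusted p = 0.000976) and MCL1 lower (−0.68, 0.0145) in NA, and without B4-4 NA 2, BAK1 (−0.56, 0.0129) and BCL2L1 (−0.53, 0.00715) were lower.

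Addback, in which ITGB4 lay between the B4-4 and Vector levels, was set against both. Against Vector with EDTA, BAX, BAK1, BID and BCL2L1 were higher, 4 of 10 members with 30.0% of all genes called. These 4 genes were higher in B4-4 than in Vector as well, and the comparisons share the Vector EDTA libraries. Side by side, BAX was +0.67 and +0.61, BAK1 +0.60 and +0.79, BID +0.69 and +0.59, and BCL2L1 +0.73 and +0.90 for Addback and B4-4 over Vector. Against B4-4 with EDTA, BBC3 alone was called, with 14.1% of all genes called. BCL2L11 was 1.87-fold higher without a call (+0.90 ± 0.28, adjusted p = 0.0589). It became a call without Addback EDTA 2, B4-4 NA 1 or B4-4 NA 2 and was +0.50 without Addback EDTA 1. BMF, which had few counts, was +3.04 ± 1.22 (adjusted p = 0.129, not called). DESeq2 called both BCL2L11 (0.00429) and BMF (0.022), as did a fit with no filter (0.000798 and 0.000962). A fit of the compared groups alone called BMF as well (+3.06, 0.0422). Against Vector with EDTA, BCL2L11 was −0.41 (adjusted p = 0.281), or −0.82 (0.0459) without Addback EDTA 1 and −0.09 (0.839) without Addback EDTA 2. Against Vector in NA, BCL2L11 and BID were higher and BBC3 and BAK1 lower, 4 of 10 members with 36.1% of all genes called. PMAIP1 (+0.86 ± 0.53, adjusted p = 0.245) and BMF (+2.18 ± 0.90, 0.0826) were not called. A fit of the compared groups alone called both (5.89e-09 and 3e-05), among 9 members and 9436 genes, and DESeq2 called BMF (+2.20, 0.0352). Their sizes were +0.88 and +2.20 without B4-4 NA 1, and +0.86 and +2.18 without B4-4 NA 2. Against B4-4 in NA, BCL2L11 and MCL1 were higher and BBC3, BIK and BAK1 lower, 5 of 10 members with 23.6% of all genes called. The last count was 0 without Addback NA 1 or Addback NA 2 and 0 in a fit of these 4 libraries alone. PMAIP1 was called higher there without B4-4 NA 1 (+1.75, adjusted p = 0.000795), and BMF (+2.74, 0.00936) and BCL2L1 (+0.74, 0.000264) without B4-4 NA 2. Without Vector EDTA 1, no member was called in Addback against Vector with EDTA.

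**Figure D3:**
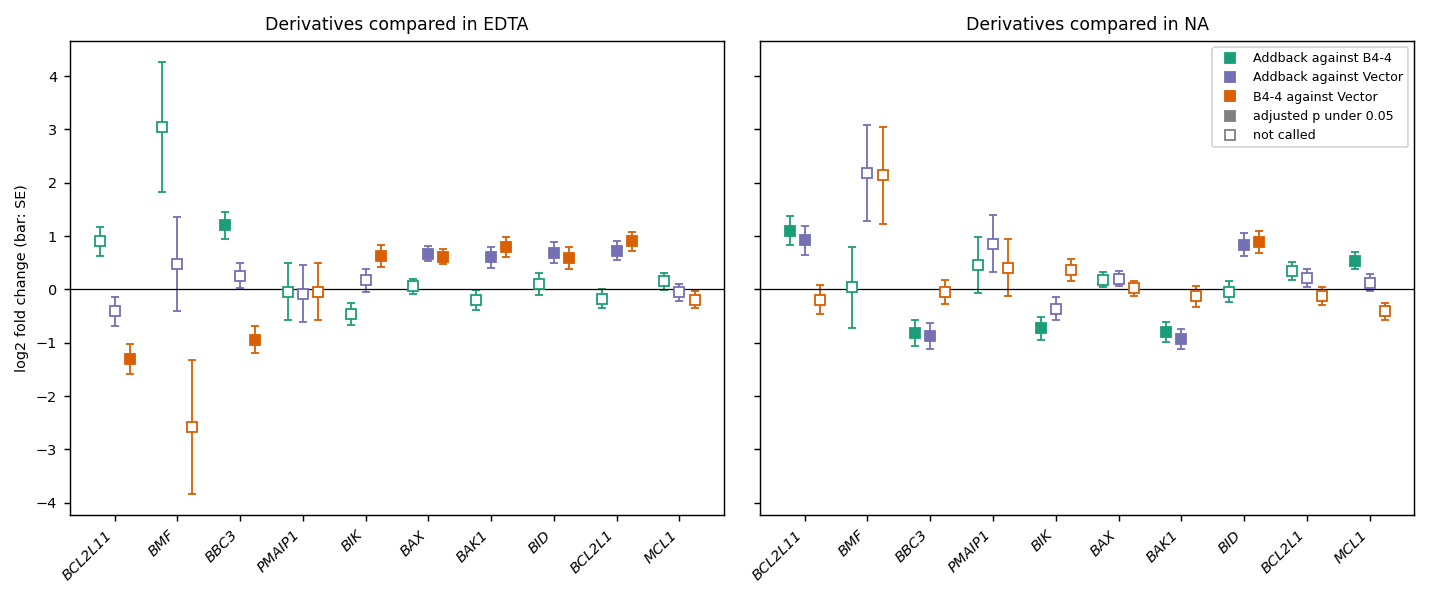
Log2 fold changes between derivatives for each member, with EDTA on the left and in NA on the right, and bars of 1 SE; filled squares passed an adjusted p of 0.05. With EDTA, BAX, BAK1, BID and BCL2L1 were higher in both Addback and B4-4 than in Vector, and in NA BAK1 was lower in Addback than in both other derivatives.

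The members did not all move together across the 12 libraries. BCL2L11 and BAK1 formed the most opposed pair of members, with Pearson's r = −0.90 and Spearman's rho = −0.97 of log2 CPM. These correlations describe 12 libraries from 6 groups, were picked for their size and carry no p. Without the 2 libraries farthest from the median of BCL2L11, Addback NA 2 and B4-4 EDTA 2, r was −0.85, and over the 6 group means it was −0.91. BCL2L11 and BIK gave r = −0.83 and PMAIP1 and BAK1 r = −0.76. BAX and BCL2L1, an effector and its guardian, moved together at r = 0.84, or 0.92 without the libraries farthest from the median of BAX, Addback EDTA 1 and Vector EDTA 1. BCL2L11 and MCL1 gave r = 0.80, and PMAIP1 and MCL1 r = 0.75. The B4-4 NA replicates lay far apart along the opposed axis, with BCL2L11 at 41.6 CPM and BAK1 at 42.8 CPM in NA 1, and 22.7 and 73.1 CPM in NA 2, beside the B4-4 EDTA libraries.

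**Figure D4:**
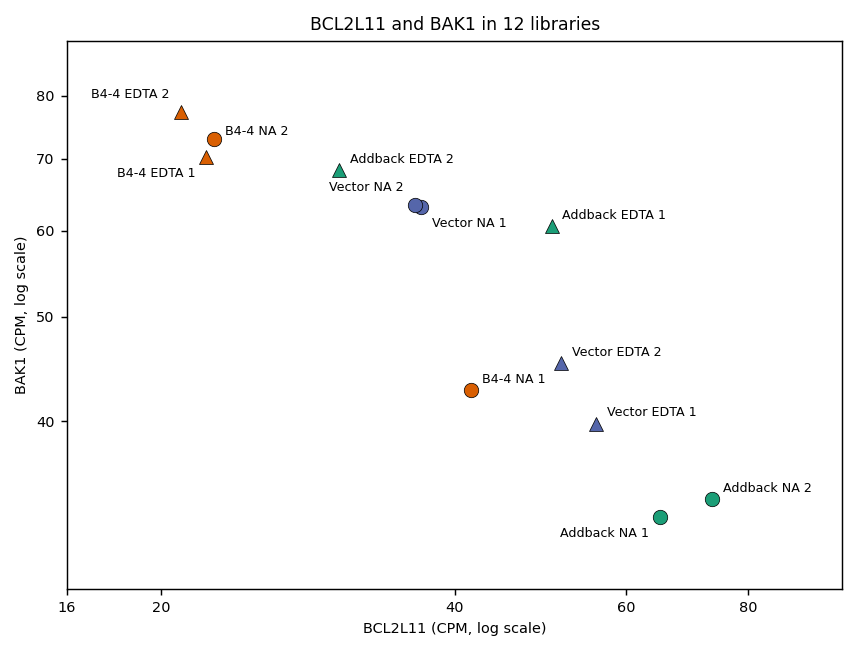
BCL2L11 against BAK1 in CPM on log axes in the 12 libraries, with triangles for EDTA, circles for NA and a colour for each derivative. The points run from B4-4 EDTA 2 (20.9 CPM of BCL2L11, 77.3 CPM of BAK1) to Addback NA (65.0 and 73.5 CPM of BCL2L11, 32.6 and 33.9 CPM of BAK1), and the B4-4 NA replicates lie apart.

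Ratios of counts within a library do not depend on the scaling of libraries. The log2 ratio of BCL2L11 to BCL2L1 was −0.34 and −1.12 in Addback EDTA and −0.13 and −0.03 in Addback NA. It was −1.72 and −1.80 in B4-4 EDTA, and −0.07 and −1.66 in B4-4 NA. It was 0.52 and 0.39 in Vector EDTA and −0.84 and −0.73 in Vector NA. Vector EDTA thus had the most BCL2L11 per BCL2L1 and B4-4 EDTA the least. The ratio of BAK1 to BCL2L1 was −1.13 and −1.14 in Addback NA and between −0.07 and 0.21 in the 10 other libraries, so these genes kept nearly equal counts in every group but Addback NA. The ratio of BAX to BCL2L1 stayed between 0.01 and 0.54 in all 12 libraries.

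**Figure D5:**
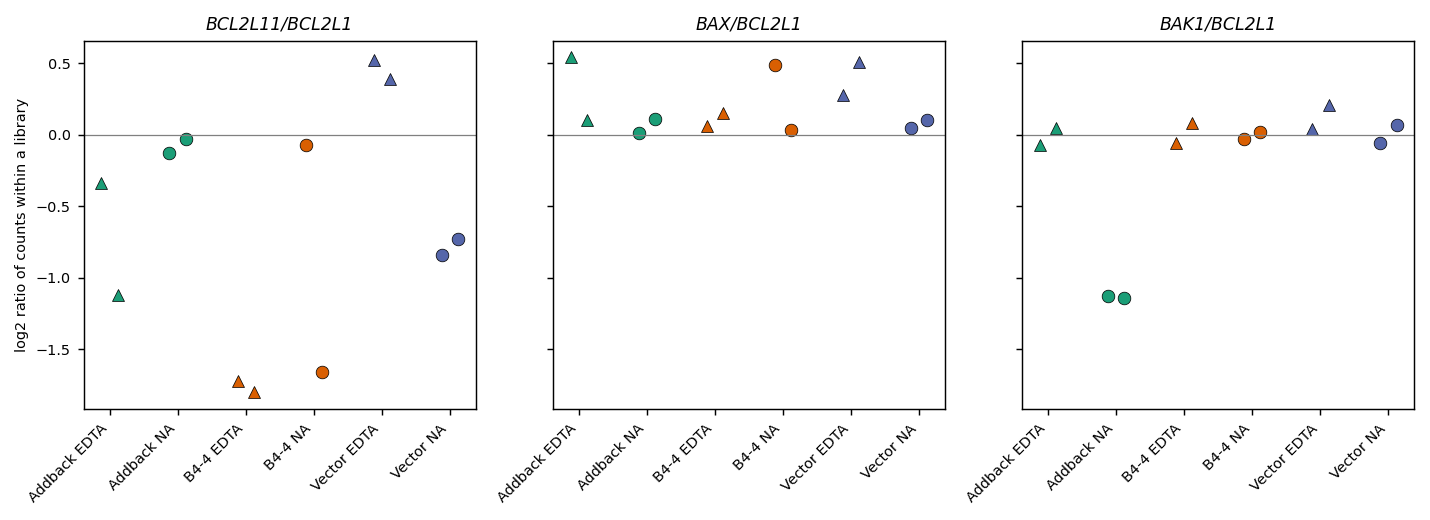
Log2 ratios of counts within each library for BCL2L11, BAX and BAK1 over BCL2L1, with triangles for EDTA and circles for NA. BAK1 over BCL2L1 stood at −1.13 and −1.14 in Addback NA and near 0 elsewhere, whereas BCL2L11 over BCL2L1 ran from −1.80 in B4-4 EDTA to 0.52 in Vector EDTA.

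For each member, the 2 genes of at least 5 CPM whose log2 CPM followed it most closely over the 12 libraries were H19 (r = 0.98) and NFIB (0.96) for BCL2L11, and BIRC5 (0.97) and MISP (0.95) for BAK1. They were ZFYVE21 (0.96) and CAMK2N1 (0.95) for BCL2L1, CAPZB (0.96) and POLR2L (0.96) for BID, and PWWP3A (0.94) and WNT10B (0.93) for BAX. They were ID2 (0.91) and TRIB1 (0.90) for PMAIP1, MAP3K5 (0.90) and FAM162A (0.90) for BBC3, and TMEM109 (0.91) and WDR82 (0.90) for BIK. They were ZBED3 (0.92) and TRANK1 (0.91) for MCL1, and SCAND1 (0.93) and NQO2 (0.92) for BMF, whose few counts limit its pattern. These values rank many genes over 12 libraries and carry no p.

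The promoters of BCL2L11 and BAX are shown as the member windows with a forkhead match and with the most E-boxes, from RefSeq on GRCh38.p14, with 250 bases before and 50 bases after the annotated start. Capitals mark a match to the forkhead motif GTAAACA in BCL2L11, which FOXO factors are known to bind, and matches to the E-box CACGTG in BAX, the motif of MYC and related factors, each searched on both strands.
BCL2L11 chr2:111120664-111120963 + strand: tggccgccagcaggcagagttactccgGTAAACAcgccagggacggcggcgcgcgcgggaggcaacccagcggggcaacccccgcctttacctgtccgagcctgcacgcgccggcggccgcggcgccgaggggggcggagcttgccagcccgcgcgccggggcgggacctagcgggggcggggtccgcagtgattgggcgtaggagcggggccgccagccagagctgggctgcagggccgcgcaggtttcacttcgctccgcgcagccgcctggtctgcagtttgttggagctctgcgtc
BAX chr19:48954625-48954924 + strand: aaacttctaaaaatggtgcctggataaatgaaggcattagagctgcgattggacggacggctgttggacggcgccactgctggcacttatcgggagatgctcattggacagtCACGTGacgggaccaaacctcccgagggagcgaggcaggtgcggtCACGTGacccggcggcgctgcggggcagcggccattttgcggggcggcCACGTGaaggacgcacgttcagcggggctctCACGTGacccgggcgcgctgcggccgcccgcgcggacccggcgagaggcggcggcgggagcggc
The window of BCL2L11 held 1 forkhead match, as did 3.42% of 35116 promoters, and no E-box. The window of BAX held 4 E-boxes and no forkhead match. At least 1 E-box was held by 7.26% of promoters, and the share with 4 was not counted. Neither of these windows held TGATGNAA, the composite motif of ATF4 and C/EBP factors, which 3.62% of promoters held. Of the other members with a promoter in the table (8 of the 10 had one), BBC3 held 1 E-box, and BID held 1 in 2 of its 5 windows, which overlap and hold the same site. The windows of BAK1, BCL2L1, BMF and PMAIP1 held no match to any of these motifs. A match is a description of letters and no evidence of binding.

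Factors known to act on these genes were followed as a list of 14. With EDTA, 2 of the 14 were higher and 9 lower in B4-4 than in Vector, where 43.4% of all genes were called, with a median log2 fold change of −0.78 against 0.00 over all genes. TP73, a transcription factor that can induce BH3-only genes, was at 0.621 and 0.692 CPM in B4-4 EDTA, against 10.01 and 11.8 CPM in Vector EDTA (−4.04 ± 0.51, adjusted p = 0.000126). FOXO4, a forkhead factor, was lower too (−0.97 ± 0.18, adjusted p = 0.00109). E2F1, which drives cell cycle genes and can induce BH3-only genes, was higher (+1.36 ± 0.18, adjusted p = 0.000104). With EDTA within B4-4, 1 of the 14 rose and 4 fell, FOXO4 and TP73 among them, against 19.9% of all genes. In NA, 2 were higher and 5 lower in Addback than in Vector, against 36.1% of all genes, with NFKB1 at 239.9 and 247.2 CPM in Addback NA, against 114.7 and 118.3 CPM in Vector NA (+1.06 ± 0.09, adjusted p = 3.9e-06), and FOXO3 lower (−0.88 ± 0.17, adjusted p = 0.00205).

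The other 15 BCL2 family genes, of which 11 were tested, behaved unevenly. In B4-4 against Vector with EDTA 4 were higher and 2 lower, against 43.4% of all genes, with BOK, a BAX-like effector, higher (+0.51 ± 0.15, adjusted p = 0.0162) and BNIP3L, a mitophagy receptor, lower (−1.04 ± 0.27, adjusted p = 0.0106). In Addback against Vector in NA 1 was higher and 4 lower, against 36.1% of all genes, with HRK, a BH3-only sensitizer, at 0.727 and 0.434 CPM in Addback NA, against 4.82 and 4.89 CPM in Vector NA (−3.05 ± 0.58, adjusted p = 0.00197). BCL2L2, which encodes BCL-W, was lower there as well (−0.58 ± 0.12, adjusted p = 0.003). With EDTA in Vector 3 of the 11 fell, HRK (−1.72 ± 0.50, adjusted p = 0.0387), MOAP1 and BCL2L12, and none rose, against 15.3% of all genes.

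Downstream of the mitochondria, 8 of 19 genes of the apoptosome, caspases and mitochondrial release were higher and 1 lower in B4-4 than in Vector with EDTA, with a median of 0.30 against 0.00 over all genes. That share is near the 43.4% of all genes called. APAF1, the scaffold of the apoptosome, was higher (+0.93 ± 0.19, adjusted p = 0.00191), while the initiator CASP9 was lower (−0.67 ± 0.16, adjusted p = 0.00445). With EDTA in Addback 4 of the 19 rose and none fell, near the 16.9% of all genes called, with BIRC5, the inhibitor of apoptosis survivin, up by 0.74 ± 0.12 on the log2 scale (adjusted p = 0.00236).

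In the death receptor list of 15, of which 14 were tested, the receptors for TRAIL divided. TNFRSF10A, a receptor with a death domain, was at 72.8 and 65.5 CPM in B4-4 EDTA, against 24.4 and 24.4 CPM in Vector EDTA (+1.5 ± 0.22, adjusted p = 0.000277). TNFRSF10D, a decoy receptor, was at 65.2 and 63.4 CPM in B4-4 EDTA, against 123.3 and 119.7 CPM in Vector EDTA (−0.92 ± 0.13, adjusted p = 0.000154). The list had 8 members higher and 3 lower in that comparison, against 43.4% of all genes. With EDTA in Vector 1 rose and 6 fell, against 15.3% of all genes, with TNFRSF10D rising (+1.18 ± 0.13, adjusted p = 0.000126) and TNFRSF10A falling (−0.85 ± 0.21, adjusted p = 0.0221). The EDTA effect in B4-4 minus that in Vector was +1.98 ± 0.30 (adjusted p = 0.00104) for TNFRSF10A and −1.65 ± 0.18 (adjusted p = 8.55e-05) for TNFRSF10D. CFLAR, which encodes the caspase-8 inhibitor FLIP, was at 102.6 and 88.9 CPM in Addback NA, against 63.3 and 59.8 CPM in Vector NA (+0.64 ± 0.11, adjusted p = 0.000673).

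Among 12 regulators of the members' proteins, 3 were higher and 1 lower in B4-4 than in Vector with EDTA, a share below the 43.4% of all genes called. DYNLL1, the dynein light chain that tethers BCL2L11, was at 222.7 and 222.4 CPM in B4-4 EDTA, against 135.0 and 142.0 CPM in Vector EDTA (+0.68 ± 0.09, adjusted p = 0.000102). It was also higher in Addback than in Vector with EDTA (+0.88 ± 0.09, adjusted p = 3.73e-05) and in NA (+0.80 ± 0.09, adjusted p = 4.52e-05). Of 12 adhesion and survival kinases and their partners, 5 were higher and 2 lower in B4-4 than in Vector with EDTA, against 43.4% of all genes, with CAV1, the caveolar scaffold, higher (+1.31 ± 0.15, adjusted p = 3.4e-05) and the kinase SRC higher (+0.88 ± 0.14, adjusted p = 0.000349). SRC was at 36.9 and 40.6 CPM in Addback NA, against 73.9 and 67.8 CPM in Vector NA (−0.87 ± 0.14, adjusted p = 0.000543).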

How the data were processed

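RNA was measured in 12 libraries of 6 groups, with 2 libraries each. Per the labels' protocols, polyadenylated RNA (250 ng) was made into KAPA stranded libraries and read as 150-base pairs. The authors deposited a table of raw counts per gene; per the submitters' processing notes, the tools were featureCounts 1.5.3, SAMtools 1.4.1 and TopHat2 2.1.1, and the builds listed, without roles, were GRCh38, hg19 and hg38. Reads were not realigned. Groups came from the sample titles. In R 4.3.3, edgeR 4.0.16 was run on the counts: filterByExpr over the 6 groups (15749 of 58233 genes kept), TMM factors, 1 model of group means over 12 libraries, robust quasi-likelihood F tests of 11 contrasts and Benjamini-Hochberg adjustment over all genes tested, with calls at an adjusted p under 0.05. SE is the log2 fold change over the root of F, and all tests are two-sided. Nothing says that replicates are separate cultures, so p-values measure the spread between libraries, which may be technical. Replicate pairs differed by more than counting noise, with chi-square over degrees of freedom of 2.67 to 53, so none was merged. Totals were 15685376 to 22156173 counts, so that 3 counts are 0.135 to 0.191 CPM. The exact intervals of the BMF count ratios cover counting error only. Intervals of log2 fold changes were taken from the SE of the edgeR fit, and so reflect the spread between libraries. RPKM used union exon lengths of GENCODE 29 on GRCh38, the source of gene positions and coding sequences; promoters came from RefSeq on GRCh38.p14. Alternatives were RLE and upper-quartile factors, no filter, DESeq2 1.42.0, a replicate block, a fit of the compared groups alone, each library left out, and CPM without TMM. The pipeline was tested on simulated data. The members and lists were chosen with earlier results of these data known. Named beyond the 10 members and ITGB4 were up to 4 called genes of each list with the smallest p in a contrast, genes overlapping a member, and for each member the 2 genes of mean 5 CPM or more with the highest r. Some list genes are not reported here.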

Additional observations from a re-analysis of the deposited data

Results flagged for a closer look

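The EDTA effect differed from that in Vector, by a test of the difference itself in edgeR, in 7 cases among the members. For B4-4 the difference in log2 fold change was −4.72 for BMF (adjusted p = 0.0451), 0.59 for BAX (0.0462), 0.92 for BAK1 (0.0258) and 1.03 for BCL2L1 (0.00881). For Addback it was −1.33 for BCL2L11 (adjusted p = 0.0313), 1.13 for BBC3 (0.0284) and 1.53 for BAK1 (0.00225). The differences for BCL2L1 in B4-4 and for BAK1 in Addback passed the threshold whichever library was left out, and the 5 others did not pass it in every such fit. BMF rests on few counts and on the B4-4 NA 2 library, without which its difference was −2.02 (adjusted p = 0.182). All 7 share the Vector libraries.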

How the results depend on the processing

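Of 33 member calls, 20 held under RLE and upper-quartile factors, no filter, DESeq2, the replicate block and a fit of the compared groups alone, and 7 held whichever library was left out. Only PMAIP1 changed sign with a call (a change of sign of a value called in neither fit was not counted). Its EDTA effect in B4-4 ran from −1.16 to 0.76 over the fits without 1 library, and B4-4 against Vector in NA ran from −0.87 to 1.06. Replicate numbers did not pair the libraries: over 15 pairs of groups, deviations of same-numbered libraries correlated at −0.17 to 0.30, over 0.1 in 5. With the replicate block, members called were 2 for EDTA in Vector, 1 for EDTA in B4-4, 2 for EDTA in Addback and 2 for Addback against B4-4 with EDTA, and counts of the other comparisons stayed within 1.5 times. The block put 3 calls past 0.05, BMF for EDTA in B4-4 (0.051) and for B4-4 minus Vector (0.0682) and BAX for B4-4 minus Vector (0.0511). It gained BAK1 for EDTA in Vector (0.0318) and BCL2L11 for EDTA in Addback (0.0396), Addback against B4-4 with EDTA (0.0386) and B4-4 minus Vector (0.0369). With no filter, members called were 4 for EDTA in Vector, 4 for EDTA in Addback, 3 for B4-4 against Vector in NA (1874 genes), 3 for Addback against B4-4 with EDTA, and 5 for the EDTA effect in Addback minus Vector. With DESeq2 they were 2 for EDTA in Vector, 2 for EDTA in Addback and 3 for Addback against B4-4 with EDTA. With the compared groups alone, EDTA in Vector called 4664 genes and 6 members, EDTA in B4-4 308 and 0, B4-4 against Vector in NA 6 and 0, Addback against B4-4 in NA 1288 and 0, and Addback against Vector in NA 9436 and 9. That fit called 2 members in Addback against B4-4 with EDTA and 5 for the EDTA effect in Addback minus Vector. The cause of these moves was not tested. Leaving out 1 library, genes called ran from 708 to 4026 for EDTA in Vector (members 0 to 4), 748 to 4598 for EDTA in B4-4 (1 to 5) and 628 to 4307 for EDTA in Addback (0 to 4). They ran from 80 to 3353 for B4-4 against Vector in NA (0 to 4), 4425 to 8119 for B4-4 against Vector with EDTA (3 to 8), 1353 to 4657 for Addback against B4-4 in NA (0 to 6) and 691 to 3777 for Addback against B4-4 with EDTA (0 to 3). They ran from 3137 to 7149 for Addback against Vector in NA (2 to 7), 2739 to 6228 for Addback against Vector with EDTA (0 to 5), 2385 to 5506 for the EDTA effect in B4-4 minus Vector (1 to 6) and 2142 to 5307 for that in Addback minus Vector (1 to 5). Each highest gene count came without B4-4 NA 1. A group left with 1 library was assumed to vary like the others. Without TMM factors, 11 of 60 group levels of members moved by more than the spread of their replicates. Depth limits BMF alone, at 1 to 67 counts a library.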
